A study of Mus musculus with 26 samples.

Results

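The 10 genes described here are known for their expression in neutrophils: S100a8, S100a9, Retnlg, Csf3r, Lcn2, Il1b, Mmp8, Mmp9, Ngp and Camp. They were chosen by name as a readout of cell infiltration into brown adipose tissue (BAT), out of 50686 genes with counts. Of the 10, 8 passed the filter on low counts and were tested among 17286 genes, and Ngp and Camp did not pass. BAT was taken from 26 individually housed male C57BL/6J mice of 12 to 16 weeks and profiled by sequencing of rRNA-depleted total RNA. All mice spent 2 weeks at thermoneutrality, given as 30 °C in the labels and as 29 °C in the study's methods. The control groups were 7 littermates kept at 30 °C and 5 moved to 5 °C for 6 h. The FAKO groups were 7 mice at 30 °C and 7 after 6 h at 5 °C, in which Adiponectin-Cre was combined with floxed Mllt4 (Afdn), the gene of the scaffold protein Afadin. This Cre is driven by the promoter of the adipocyte hormone adiponectin, and so acts in adipocytes of all depots.

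Neutrophils are short-lived granulocytes that are made in bone marrow, circulate in blood and enter tissues when chemokines and adhesion molecules call them. Their granules hold antimicrobial proteins and proteases, of which some are made only in marrow precursors, while the cytosol of the mature cell is rich in the S100a8 and S100a9 proteins. In adipose tissue they are few at rest. Several of the 10 genes are not restricted to neutrophils. Lcn2 is also made by adipocytes as an acute phase protein, Il1b and Csf3r are also expressed by monocytes and macrophages, and Mmp9 is also made by macrophages and stromal cells. In bulk tissue, a change in the number of cells of a type and a change in RNA per cell cannot be told apart.

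The promoters of the 4 genes with the largest cold responses in mice labelled FAKO are shown here, since all 4 rose after cold under both labels, from base -250 to base -1 before the start of transcription. RefSeq windows (GRCm38.p6) were matched by symbol for 9 of the 10 genes, and Mmp9 was not matched. Capitals mark TTNNGNAA, a core bound by C/EBP factors, GAGGAAGT, bound by PU.1, and TATAAA, the TATA box. The first and second were searched on both strands and the third on the coding strand. In the sequences shown the matches do not overlap.
S100a8 (chr3:90668821-90669070, plus strand): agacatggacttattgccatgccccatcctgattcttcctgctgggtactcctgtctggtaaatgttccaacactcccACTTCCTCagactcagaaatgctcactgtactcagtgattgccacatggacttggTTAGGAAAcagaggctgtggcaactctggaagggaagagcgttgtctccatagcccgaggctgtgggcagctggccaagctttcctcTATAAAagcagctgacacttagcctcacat
S100a9 (chr3:90695722-90695971, minus strand): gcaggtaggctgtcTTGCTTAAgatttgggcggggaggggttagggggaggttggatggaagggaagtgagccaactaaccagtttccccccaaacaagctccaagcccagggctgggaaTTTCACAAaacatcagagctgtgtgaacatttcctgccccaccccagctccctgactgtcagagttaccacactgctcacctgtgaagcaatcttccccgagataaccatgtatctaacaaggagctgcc
Lcn2 (chr2:32387740-32387989, minus strand): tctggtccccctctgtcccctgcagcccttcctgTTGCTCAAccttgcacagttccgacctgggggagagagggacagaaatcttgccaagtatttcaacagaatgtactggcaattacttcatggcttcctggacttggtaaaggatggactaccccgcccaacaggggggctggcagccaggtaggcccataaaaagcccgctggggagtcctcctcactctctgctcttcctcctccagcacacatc
Mmp8 (chr9:7558179-7558428, plus strand): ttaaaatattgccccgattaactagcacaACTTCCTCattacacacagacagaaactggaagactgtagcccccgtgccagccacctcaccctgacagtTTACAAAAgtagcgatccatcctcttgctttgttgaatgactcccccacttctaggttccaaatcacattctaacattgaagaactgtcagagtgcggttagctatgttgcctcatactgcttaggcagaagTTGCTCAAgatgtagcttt
C/EBP factors and PU.1 are required for the development of the myeloid lineage. The C/EBP core was found in 7 of the 9 windows, against 36.8% of 32851 promoter windows of the same length. The PU.1 sequence was found in S100a8 and Mmp8, 2 of the 9 windows, against 2.44% of all windows. A TATA box was found in S100a8 and Il1b, against 7.59%. Neither the NF-kappaB sequence GGANTTTCC (1.07% of all windows) nor the cAMP response element TGACGTCA (1.55%) was found in any of the 9. In S100a8 the TATA box lay from base -30 to base -25 and the C/EBP core from -117 to -110. In Mmp8 the C/EBP cores lay at -151 to -144 and -19 to -12. These matches describe the letters and show no binding.

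Total counts per mouse ran from 12706000 to 25732300 (rounded, median 17237400), so that a gene with a count of 0 in a mouse could have had up to 3 counts, or 0.129 to 0.232 CPM across the 26 libraries. CPM are counts scaled to a common library size with TMM factors. The log2 fold changes, standard errors (SE) and p-values come from edgeR's quasi-likelihood fit, adjusted by the Benjamini-Hochberg method over all 17286 genes. A gene was called when its adjusted p, or FDR, lay under 0.05. Afdn itself did not differ between the labels at 30 °C (194.7 ± 27.4 CPM in mice labelled FAKO and 196 ± 21.0 in control mice, SD, n = 7 each, log2 fold change -0.01, edgeR adjusted p = 0.992), so the groups are named by their labels. At 5 °C it was 58.5 ± 4.15 CPM (n = 7) against 73.5 ± 4.27 CPM (n = 5). The log2 fold change was -0.33, with an edgeR unadjusted p of 0.000884 and adjusted p of 0.116. By immunoblot, the paper reports a smaller cold rise of Afadin protein in BAT of FAKO mice than of controls. RNA and protein are unlike measures, and these counts cover the whole gene in bulk tissue. Libraries stood apart in 3 mice. FAKO mouse 27 at 5 °C had the highest counts of the chemokine genes Cxcl1, Cxcl2 and Cxcl5, control mouse 7 at 30 °C had the highest red blood cell counts of its group, and FAKO mouse 23 at 5 °C had high lymphocyte genes (46.3 CPM summed over the list, against a group median of 7.44). Many results that rest on mice 7 and 27 are given with and without them, and the others are given with all mice only. Skeletal muscle genes ranged from 1.24 to 7416 CPM in sum between mice, and none of the 7 was called by edgeR in either cold comparison (none at an unadjusted p below 0.05).

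S100a8 and S100a9 encode the 2 subunits of calprotectin, a calcium and zinc binding protein that is abundant in the neutrophil cytosol. Their genes are neighbours on chromosome 3 of mm10, from 90668978 to 90670035 on the plus strand and from 90692632 to 90695721 on the minus strand. S100a8 in control mice at 30 °C ran from 0 to 1.33 CPM with a median of 0.193. At 5 °C the 5 control mice had 2.14, 3.27, 1.20, 1.82 and 2.71 CPM. All but control mouse 7 at 30 °C were below every cold control mouse. S100a8 in mice labelled FAKO ran from 0.175 to 0.723 CPM (median 0.354) at 30 °C and from 1.14 to 16.5 CPM (median 2.54) at 5 °C, and the groups did not overlap. S100a8 rose after cold by a log2 fold change of 2.50 in control mice (SE 0.64, edgeR adjusted p = 0.00126) and of 3.43 in mice labelled FAKO (SE 0.58, edgeR adjusted p = 8.5e-06).

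S100a9 ran from 0.437 to 2.06 CPM (median 0.618) in control mice at 30 °C. The cold control mice had 2.61, 3.48, 1.50, 2.55 and 3.17 CPM, and only control mouse 7 at 30 °C reached into that range. In mice labelled FAKO it ran from 0.175 to 1.14 CPM (median 0.649) at 30 °C and from 1.39 to 23.96 CPM (median 3.14) at 5 °C, with no overlap. The log2 fold change was 1.68 in control mice (SE 0.58, edgeR adjusted p = 0.0131) and 3.35 in mice labelled FAKO (SE 0.55, edgeR adjusted p = 5.45e-06). Without control mouse 7 and FAKO mouse 27, S100a9 rose by 2.15 and 2.50 (log2), and S100a8 by 3.42 and 2.58. S100a8 passed the filter through the cold groups, since it reached the filter's level of 0.580 CPM (on library sizes without TMM factors) in 3 of 14 mice at 30 °C and in all 12 cold mice, where 5 mice were needed, so that part of its rise was built into its being tested. S100a9 reached that level in 8 of the 14.

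**Figure D1:**
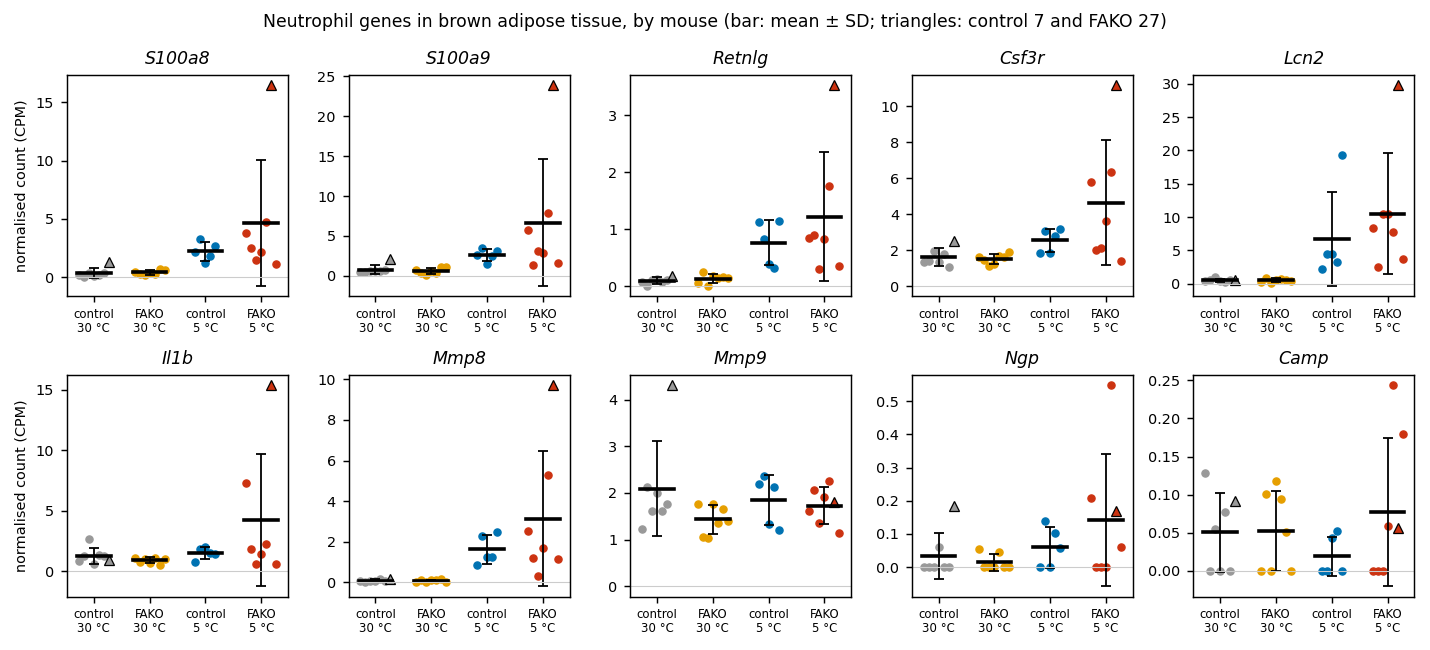
Normalised counts (CPM, linear axis) of the 10 genes in each of the 26 mice, by group, with the mean and SD as bars. Triangles mark control mouse 7 at 30 °C and FAKO mouse 27 at 5 °C, and mouse 27 had the highest value of its group in S100a8, S100a9, Retnlg, Csf3r, Lcn2, Il1b and Mmp8.

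Mmp8, neutrophil collagenase, is stored in granules and cleaves fibrillar collagen. It was close to absent at 30 °C. Control mice at 30 °C had 0 to 4 counts and mice labelled FAKO had 0 to 3, with 1 and 3 mice at 0. The cold control mice had 0.830, 2.30, 1.24, 1.25 and 2.48 CPM, or 14 to 43 counts. Mice labelled FAKO had 0.299 to 9.73 CPM (median 1.67) at 5 °C, or 4 to 173 counts. The cold mice were above all mice at 30 °C within both labels. Under the FAKO label the gap was narrow, with 4 counts in mouse 24 at 5 °C against 3 in mouse 13 at 30 °C. The log2 fold change was 4.15 (SE 0.75, edgeR adjusted p = 2.47e-05) in control mice and 5.40 (SE 0.69, edgeR adjusted p = 1.2e-07) in mice labelled FAKO, where it was 4.77 (SE 0.60) without mouse 27. This was the largest fold change of the 8 tested genes in both comparisons, but Mmp8 passed the filter through the cold groups as S100a8 did, with 0 of 14 mice at 30 °C at the filter's level.

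Retnlg, a secreted resistin-like protein of mature neutrophils, followed the same pattern at a lower count. At 30 °C it had 0 to 4 counts in control mice and 0 to 5 in mice labelled FAKO. The cold control mice had 1.13, 0.836, 0.386, 0.312 and 1.15 CPM, and mice labelled FAKO ran from 0.299 to 3.54 CPM (median 0.839). In CPM, neither label showed any overlap between temperatures. In counts, mice labelled FAKO overlapped, with 4 in mouse 24 at 5 °C and 5 in mouse 9 at 30 °C (0.299 and 0.254 CPM). Retnlg rose by 2.81 (log2, SE 0.64, edgeR adjusted p = 0.000378) in control mice. In mice labelled FAKO the rise was 3.14 (SE 0.53, edgeR adjusted p = 9.38e-06). Like Mmp8, it passed the filter through the cold groups, with 0 of the 14 mice at 30 °C at its level.

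Lcn2 encodes lipocalin 2, which binds bacterial iron carriers and is stored in neutrophil granules. Its range at 30 °C was 0.232 to 0.941 CPM (median 0.551) in control mice and 0.175 to 0.913 CPM (median 0.590) in mice labelled FAKO. The cold control mice had 2.14, 4.46, 4.46, 3.22 and 19.2 CPM, so that control mouse 21 had several times the level of the other 4. The cold mice labelled FAKO ran from 2.54 to 29.9 CPM with a median of 8.39. Both cold groups lay above all mice at 30 °C. The log2 fold change was 3.63 (SE 0.58, edgeR adjusted p = 4.12e-06) in control mice, and 2.73 without mouse 21. It was 4.33 (SE 0.55, edgeR adjusted p = 1.01e-07) in mice labelled FAKO.

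Csf3r is the receptor for granulocyte colony-stimulating factor, the main growth factor of the lineage. In control mice it ran from 1.08 to 2.52 CPM (median 1.37) at 30 °C and was 1.84, 3.07, 1.85, 2.81 and 3.17 CPM at 5 °C, with overlapping groups. Its log2 fold change of 0.63 (SE 0.37, edgeR adjusted p = 0.133) did not pass the threshold. Without mice 7 and 27 the value was 0.76 and passed it (edgeR adjusted p = 0.0334). In mice labelled FAKO, Csf3r ran from 1.11 to 1.90 CPM at 30 °C and from 1.37 to 11.2 CPM (median 3.63) at 5 °C. It rose by 1.61 (log2, SE 0.33, edgeR adjusted p = 0.00012), although the groups overlapped.

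Il1b encodes the inflammatory cytokine interleukin-1β, which is made by activated myeloid cells. In control mice it had 0.604 to 2.66 CPM (median 1.25) at 30 °C and 0.771, 1.88, 1.97, 1.51 and 1.44 CPM at 5 °C, which is within the range of the warm mice. The log2 fold change was 0.26 (SE 0.60, edgeR adjusted p = 0.714). In mice labelled FAKO it ran from 0.517 to 1.13 CPM (median 1.05) at 30 °C and from 0.598 to 15.4 CPM (median 1.81) at 5 °C. The cold FAKO values were spread, with 15.4 and 7.34 CPM in mice 27 and 22 and at most 2.26 CPM in the other 5. Il1b rose by 2.21 in this comparison (log2, SE 0.54, edgeR adjusted p = 0.000756) and by 1.32 without mice 7 and 27 (edgeR adjusted p = 0.0106).

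Mmp9, gelatinase B, degrades basement membrane collagen and was called in neither cold comparison. It ran from 1.22 to 4.31 CPM (median 1.76) in control mice at 30 °C and was 2.19, 2.37, 1.33, 2.13 and 1.21 CPM at 5 °C. In mice labelled FAKO it ran from 1.05 to 1.77 CPM (median 1.40) at 30 °C and from 1.14 to 2.26 CPM (median 1.80) at 5 °C. The groups overlapped in both comparisons. The log2 fold changes of Mmp9 were -0.20 (SE 0.25, edgeR adjusted p = 0.490) in control mice and 0.27 (SE 0.24, edgeR adjusted p = 0.314) in mice labelled FAKO, and with scaling by library size alone the second was -0.05. Without control mouse 7 the first turned to 0.07 (SE 0.21).

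Ngp and Camp encode proteins of the specific granules, which are made mostly in marrow precursors. Camp, the precursor of the antimicrobial peptide cathelicidin, had at most 4 counts in any of the 26 mice. Ngp, neutrophilic granule protein, had at most 4 counts at 30 °C and at most 2 in cold control mice. In cold mice labelled FAKO it had 0 to 9 counts, the 9 in mouse 26. Apart from Ngp in mouse 26, these levels are near or under the limit that a count of 0 allows. Without the filter, Ngp was called in mice labelled FAKO (log2 fold change 2.76, SE 0.98, edgeR adjusted p = 0.0246) and Camp was called in no comparison.

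Of the 8 tested genes, 5 rose in control mice (S100a8, S100a9, Retnlg, Lcn2 and Mmp8), beside 31.6% of all genes tested that rose. Under the FAKO label 7 rose, all but Mmp9, beside 33.7% of all genes. No member fell, where 33.4% of all genes fell in control mice. In CPM, cold mice lay above all warm mice for 3 of the 8 in control mice, beside 23.5% of all genes tested. They did so for 5 in mice labelled FAKO, beside 21.1%, with Retnlg among the 5 although its counts overlapped. S100a8, Retnlg and Mmp8 are in these counts and medians although they passed the filter only through the cold groups, so the counts and medians describe the 8 genes and support nothing further. The median log2 fold change of the 8 was 2.09 in control mice and 3.25 in mice labelled FAKO, against medians of -0.01 and -0.03 over all genes. Without mice 7 and 27 the counts were 6 and 7 and the medians 2.60 and 2.53, so that the median in mice labelled FAKO was no longer the higher. With the mean level of red blood cell genes as a covariate they were 5 and 6, since Il1b in mice labelled FAKO was no longer called (log2 fold change 1.10, edgeR adjusted p = 0.186).

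**Figure D2:**
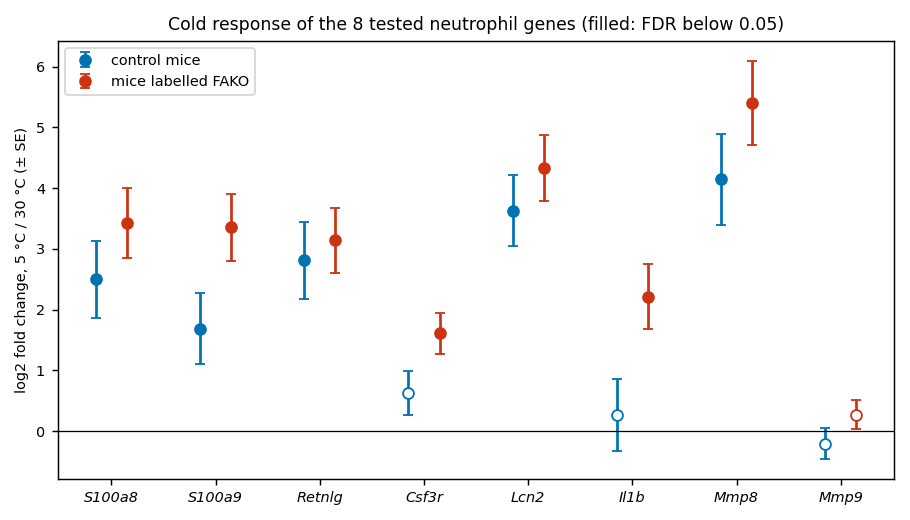
Log2 fold change from 30 °C to 5 °C (± SE, edgeR) of the 8 tested neutrophil genes in control mice and in mice labelled FAKO, with filled points for an FDR below 0.05. The values run from -0.20 (Mmp9) to 4.15 (Mmp8) in control mice and from 0.27 (Mmp9) to 5.40 (Mmp8) in mice labelled FAKO.

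Levels were compared between genes as mean CPM per kilobase of exon. In cold control mice S100a9 had 5.10, S100a8 3.21, Lcn2 2.56, Retnlg 1.29, Il1b 0.794, Csf3r 0.705, Mmp8 0.668 and Mmp9 0.522 CPM per kilobase. In cold mice labelled FAKO the order from the top was S100a9 (12.8), S100a8 (6.67), Lcn2 (3.99), Il1b (2.21), Retnlg (2.06), Mmp8 (1.29), Csf3r (1.28) and Mmp9 (0.489). Calprotectin genes headed both orders. In control mice at 30 °C the highest were S100a9 with 1.51 and Il1b with 0.661 CPM per kilobase, and Mmp8 was lowest of the tested genes with 0.034. In cold control mice S100a9 and S100a8 (SD 1.45 and 1.15, n = 5) differed by more than their SDs, and no other neighbours in the order did. In cold mice labelled FAKO (n = 7) no neighbours differed by more than the larger of their SDs, which was 15.3 for S100a9 and 7.78 for S100a8. Without mouse 27 (n = 6) the means were S100a9 7.28, S100a8 3.81, Lcn2 2.76, Retnlg 1.41, Il1b 1.23, Csf3r 0.981, Mmp8 0.834 and Mmp9 0.485 CPM per kilobase, with Il1b below Retnlg and Mmp8 below Csf3r.

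Whether the label made a difference was asked at each temperature and for the cold response itself. At 30 °C none of the 8 genes was called by edgeR or DESeq2, where edgeR called 0.081% of all genes, and 1 had an unadjusted p below 0.05, as did 7.65% of all genes. This was Mmp9 (log2 fold change -0.56, SE 0.23, unadjusted p = 0.024, edgeR adjusted p = 0.564), and without control mouse 7 the value was -0.25. S100a8 had a log2 fold change of 0.15 (SE 0.70), which was 1.11 (SE 0.77) without control mouse 7. At 5 °C neither tool called any of the 8, where edgeR called 0.139% of all genes, and 3 had an unadjusted p below 0.05, as did 13.4% of all genes. These were Il1b (log2 fold change 1.47, SE 0.58), S100a9 (1.34, SE 0.54) and Csf3r (0.87, SE 0.36), with edgeR adjusted p-values of 0.265, 0.270 and 0.279. The other values were 1.08 for S100a8 (SE 0.55), 0.97 for Mmp8 (SE 0.51), 0.73 for Retnlg (SE 0.47), 0.65 for Lcn2 (SE 0.48) and -0.08 for Mmp9 (SE 0.26).

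The median of the 8 log2 fold changes between the labels at 5 °C was 0.92. It was 0.30 without FAKO mouse 27 and 0.05 with red blood cell genes as a covariate. Without mouse 27 the log2 fold change of S100a8 was 0.26 (SE 0.43), that of S100a9 0.52 (SE 0.41) and that of Mmp8 0.34 (SE 0.44). Lcn2 moved with 2 libraries, to 0.11 without FAKO mouse 27 and to 1.55 without control mouse 21. The difference between the cold responses was called for none of the 8 genes by either tool, where edgeR called 1.16% of all genes, and 2 had an unadjusted p below 0.05, as did 16.2% of all genes. The largest was that of Il1b, 1.95 (log2, SE 0.81, unadjusted p = 0.0237, edgeR adjusted p = 0.228), followed by S100a9 with 1.67 (SE 0.81, unadjusted p = 0.049, edgeR adjusted p = 0.305). Without both mice 7 and 27 these were 1.15 (SE 0.65) and 0.35 (SE 0.58), and that of S100a8 turned from 0.93 (SE 0.89) to -0.84 (SE 0.62). A difference that misses the threshold at these SEs does not show that the labels respond alike.

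**Figure D3:**
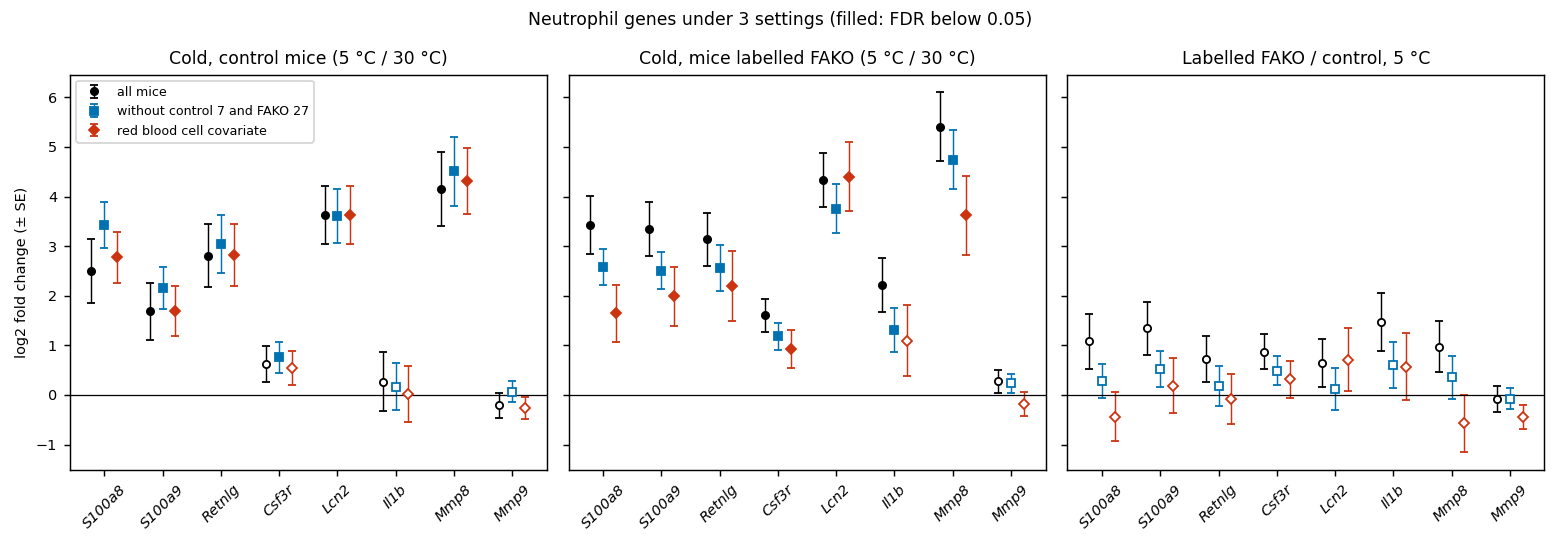
Log2 fold changes (± SE, edgeR) of the 8 genes with all mice, without control mouse 7 and FAKO mouse 27, and with red blood cell genes as a covariate, for cold in control mice, cold in mice labelled FAKO, and the label at 5 °C. Filled points have an FDR below 0.05. In the third panel no point is filled, and S100a8 goes from 1.08 to 0.28 and -0.44.

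Blood left in the tissue carries neutrophils, so red blood cell genes were examined in the same libraries. The summed CPM of 9 such genes, with the haemoglobins and Alas2, the first enzyme of haem synthesis in red cells, was 253 to 1168 in control mice at 30 °C and 440.3 to 714 in the cold. The mice labelled FAKO had 312 to 642 in the warm and 544 to 1538 in the cold. None of the 9 genes was called in cold control mice by edgeR, where 31.6% of all genes rose, and none had an unadjusted p below 0.05. Their median log2 fold change there was 0.06. Without mice 7 and 27 it was 0.48, with 1 of the 9 called higher. In cold mice labelled FAKO 9 of 9 rose, beside 33.7% of all genes, with a median log2 fold change of 1.15. Without mice 7 and 27 it was 1.05, again with 9 of 9. With scaling by library size alone 4 of 9 rose. Between the labels at 5 °C the median was 0.93, and 8 of 9 had an unadjusted p below 0.05, as did 13.4% of all genes, while edgeR called none. FAKO mouse 27 had the highest sum of red blood cell genes and of neutrophil genes in its group, as did control mouse 7 in its own. FAKO mouse 28 had 1089 CPM of red blood cell genes and, with 11.4 CPM, the lowest sum of the 10 neutrophil genes among cold FAKO mice. With the covariate, S100a8 rose in cold mice labelled FAKO by 1.64 (log2, edgeR adjusted p = 0.016) in place of 3.43, Mmp8 by 3.62 (edgeR adjusted p = 0.000359) and Lcn2 by 4.40 (edgeR adjusted p = 5.11e-06). In cold control mice the values with the covariate were 2.77 for S100a8, 4.32 for Mmp8 and 3.63 for Lcn2. The covariate was not fitted without mice 7 and 27, which had the highest sums of both gene sets in their groups. Under the FAKO label red blood cell genes themselves rose with cold, so the covariate and the temperature are not independent there.

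**Figure D4:**
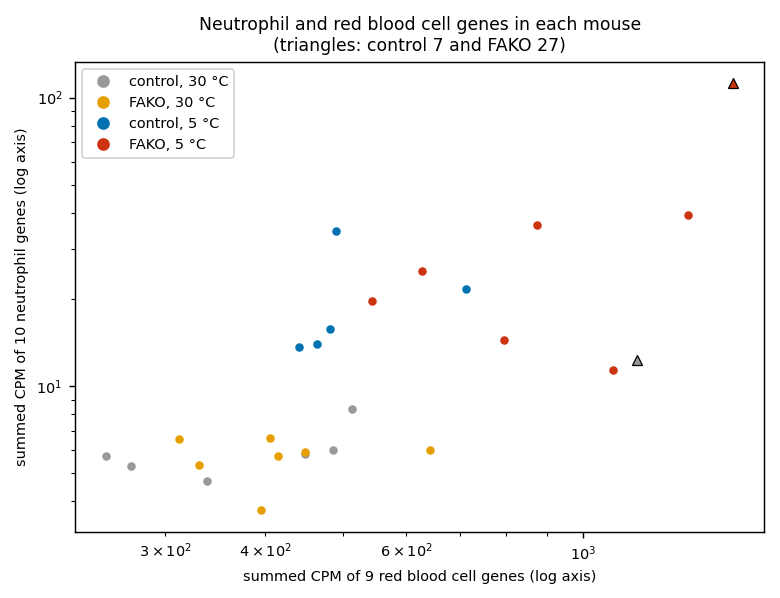
Summed CPM of the 10 neutrophil genes against summed CPM of 9 red blood cell genes in each of the 26 mice, both on log axes. The cold control mice lie between 13.6 and 34.6 CPM of neutrophil genes at 440.3 to 714 CPM of red blood cell genes, and FAKO mouse 27 lies at 112 and 1538 CPM.

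A list of 31 other genes of mature neutrophils was set beside the 10 genes. Of the 31, 14 passed the filter. A gene can pass it through the cold groups alone, and this was not examined for the list, so its counts and medians are descriptions. In control mice 7 rose and 2 fell, beside 31.6% and 33.4% of all genes. In mice labelled FAKO 10 rose and 2 fell, beside 33.7% and 34.9%. The medians were 0.60 and 1.69 (log2). Cxcr2, the main chemokine receptor of neutrophils, rose by 2.31 (SE 0.81) and 4.49 (SE 0.74). Clec4d and Clec4e, lectin receptors of myeloid cells, rose by 4.03 and 2.66 in control mice, and the rises in mice labelled FAKO were 3.90 and 3.10. Il1r2, the decoy receptor for interleukin-1, rose by 1.49 and 3.06, and Slfn4 by 2.63 and 4.61. Hdc, which makes histamine, rose by 2.48 and 2.87. Ly6g, the surface marker by which mouse neutrophils are sorted, was at 0 in all mice at 30 °C, at no more than 1 count in cold control mice and at no more than 3 in cold mice labelled FAKO. G0s2, which also inhibits fat breakdown in adipocytes, and Mxd1 fell in both. Without mice 7 and 27 the list again had 7 and 10 higher and 2 lower in each. In mice labelled FAKO 7 were higher with the red blood cell covariate, 8 with scaling by library size alone and 9 without mice 7, 23 and 27.

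Other genes of granules and marrow precursors went in both directions, as all genes did. Of 12 listed, 5 were tested. In control mice 2 rose and 3 fell, beside 31.6% and 33.4% of all genes. In mice labelled FAKO 2 rose and 2 fell, beside 33.7% and 34.9%. The other 7 were too low to test. Mpo had at most 3 counts and Ctsg at most 1 in any mouse, and Ms4a3 and Fcnb were at 0 in all 26. Elane, neutrophil elastase, fell in both labels, by 2.91 and by 3.22 on the log2 scale, from a median of 7 counts at 30 °C in each to 1 and 0 counts. Prtn3, proteinase 3, fell by 2.22 and 1.44. Elane lies 2638 bp from Cfd, the adipsin gene of adipocytes, on the same strand, and Prtn3 overlaps Plppr3 on the opposite strand, and the share of neighbours' reads in their low counts was not tested. Chil3, a chitinase-like protein of neutrophils and macrophages, rose by 1.66 and 2.49. With scaling by library size alone, 0 of the 5 rose in control mice in place of 2.

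**Figure D5:**
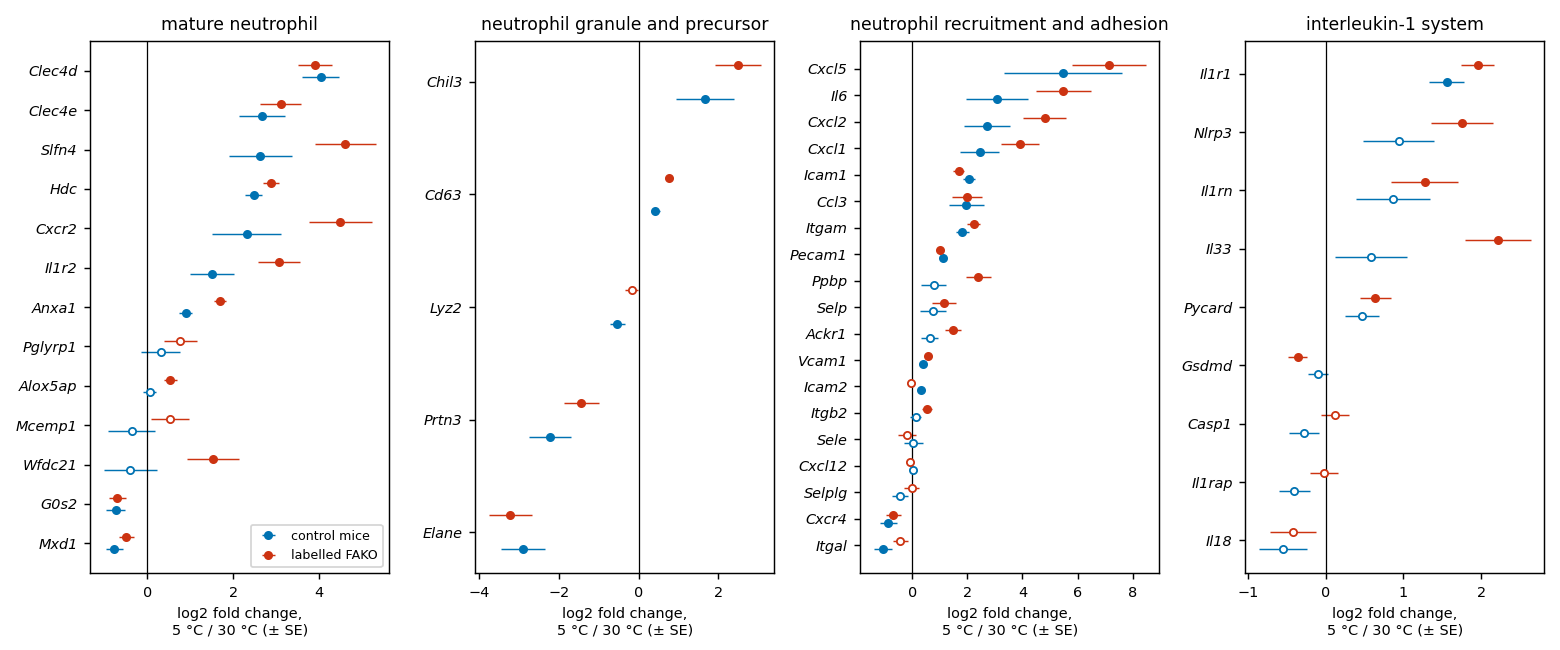
Log2 fold change from 30 °C to 5 °C (± SE, edgeR) of the tested genes of 4 other lists, less 1 mature neutrophil gene that is not shown, in control mice and in mice labelled FAKO, with filled points for an FDR below 0.05. Cxcl5 rests on 1 count in 1 of the 7 control mice at 30 °C. Cxcr2 reads 2.31 and 4.49, Clec4d 4.03 and 3.90, Elane -2.91 and -3.22, and Il1r1 1.55 and 1.96.

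Of 24 genes for the recruitment and adhesion of neutrophils 19 were tested. Whether genes passed the filter through the cold groups alone was examined only for the 10 members. The counts and medians of this and every other list are therefore descriptions. In control mice 10 rose and 2 fell, beside 31.6% and 33.4% of all genes. In mice labelled FAKO 13 rose and 1 fell, beside 33.7% and 34.9%. Without mice 7 and 27, 18 were tested, of which 10 rose in control mice and 11 in mice labelled FAKO. The list held chemokine ligands of Cxcr2. Cxcl1 rose from 1.19 ± 0.784 CPM (SD, n = 7) to 6.43 ± 2.62 CPM (n = 5) in control mice. The mice labelled FAKO had 0.749 ± 0.338 CPM in the warm and 2.02 to 51.7 CPM (median 3.11) in the cold (n = 7 each). Its log2 fold changes were 2.45 (SE 0.69) and 3.92 (SE 0.69), and 2.18 and 2.54 without mice 7 and 27. Cxcl2 rose by 2.72 and 4.80, and by 2.48 and 3.32 without these mice. Cxcl5 was at 0 in 6 of 7 control mice at 30 °C and had 2 to 35 counts in the cold control mice, and in cold mice labelled FAKO it had 0 to 665 counts with a median of 17. Il6, a cytokine of the acute phase, rose by 3.09 and 5.49, and by 2.80 and 3.61 without these mice. FAKO mouse 27 held the highest count of Cxcl1 (920), Cxcl2 (387), Cxcl5 (665), Il6 (217) and the alarmin Il33 (669). Among adhesion molecules Icam1, the endothelial ligand of neutrophil integrins, rose by 2.07 and 1.68, and Itgam, its integrin partner on myeloid cells, by 1.82 and 2.23. Cxcr4, which holds neutrophils in the marrow, fell by 0.86 and by 0.68 on the log2 scale.

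The interleukin-1 system around Il1b changed in part. Of 9 tested genes 1 rose in control mice, the receptor Il1r1 (1.55, SE 0.22), where 31.6% of all genes rose. Under the FAKO label 5 rose and 1 fell, beside 33.7% and 34.9% of all genes. The risers were Il1r1 (1.96), Il33 (2.21), the inflammasome sensor Nlrp3 (1.75), its adaptor Pycard (0.64) and the receptor antagonist Il1rn (1.27). Genes of the acute phase, the class to which Lcn2 also belongs, rose in both. Of 14 tested, 9 rose and 2 fell in control mice, beside 31.6% and 33.4% of all genes. In mice labelled FAKO 9 rose and 1 fell, beside 33.7% and 34.9%. Saa3, the serum amyloid A of adipose tissue, rose by 6.30 and 5.27, Hp, haptoglobin, by 1.54 and 1.54, and Serpina3n, a protease inhibitor, by 2.67 and 4.34. Slc22a17, a receptor for lipocalin 2, fell by 0.84 and by 0.85 on the log2 scale. Among other matrix metalloproteinases and their inhibitors, 4 of 13 rose and 3 fell in each comparison, shares near or below those of all genes (31.6% and 33.7% higher, 33.4% and 34.9% lower). They included Mmp3 (1.33 and 2.31), Mmp19 (1.34 and 2.00) and Timp1 (2.28 and 2.78) as risers and Mmp13 (-2.25 and -2.42) as a faller. None of the tested genes of these 6 lists was called by edgeR for the label at either temperature or for the difference of the cold responses. At 5 °C an unadjusted p below 0.05 between the labels was found for 5 of 14 mature neutrophil genes, 1 of 5 granule genes, 5 of 19 recruitment genes, 2 of 9 interleukin-1 genes, 2 of 14 acute phase genes and 1 of 13 metalloproteinase genes, beside 13.4% of all genes.

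Monocytes and macrophages express some of the 10 genes, so their own list was counted too. Of 15 genes, 5 rose and 5 fell in control mice, which is near the shares of all genes (31.6% higher and 33.4% lower), and 9 rose and 4 fell in mice labelled FAKO, beside 33.7% and 34.9%. The median log2 fold change of the list was 0.26 in control mice and 0.56 in mice labelled FAKO, with rises of up to 2.35 and 2.24. The genes named next are mostly fallers and do not stand for the list. Cx3cr1, a chemokine receptor of monocytes and resident macrophages, fell by 3.37 and by 3.97 on the log2 scale. Csf1r, the growth factor receptor of macrophages, fell by 1.03 and 0.76, and Adgre1, which encodes F4/80, by 0.68 and 0.51. Mrc1, the mannose receptor, rose by 0.78 and 1.27. The summed CPM of the list ran from 208 to 316 in the warm mice and from 320 to 417 in the cold mice. Its part in the levels of Il1b, Csf3r and Lcn2 was not tested.

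Which genes varied with the members from mouse to mouse was described by the correlation of log2 CPM, less the mean of each group, over the 26 mice. Among 17286 genes, S100a9 was the gene closest to S100a8 (Pearson r = 0.878, and 0.758 as the second closest without mice 7 and 27). Csf3r (0.774) and Retnlg (0.773) were the fifth and the sixth, after Baiap2 (0.836), Tbl1x (0.795) and Prrx1 (0.775). The rest of the first 10 were Ralgds, Fam110c, Pkp3 and Apln, with r from 0.767 to 0.770. Without mice 7 and 27, S100a9, Retnlg, Commd8, Cpox, Gm45479, Nxpe5, Ccr1, Dnajc7, Arhgap6 and Ccl8 were the closest 10, so that 2 genes stood in both. Mmp8 had r = 0.698 with S100a8, Il1b 0.541, Mmp9 0.511 and Lcn2 0.412, and without mice 7 and 27 these were 0.549, 0.414, 0.341 and 0.203. The genes closest to Lcn2 were Kat7 (0.792), Fmnl2, Mt1, Coq8b and Sema6b, and the nearest member was Csf3r (0.571, and 0.411 without mice 7 and 27). Those closest to Il1b were Clec7a (0.876), a receptor for fungal glucans on myeloid cells, Plek (0.875), the chemokine gene Cxcl9 (0.857), Ier5 and Iigp1, and the nearest member was Csf3r (0.756). All these points share libraries and depth, and several of the genes have few counts.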

How the data were processed

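Groups of the 26 libraries follow the sample labels. The 100-bp single-end reads were aligned to mm10 (STAR 2.5.2b) and summed over genes (featureCounts 1.5.2) by the authors. The strand setting of the counting is not given in the sources used here. The deposited values are counts without normalization, and alignment and counting were not repeated. The genes were named with GENCODE M21. The members and the other gene lists were chosen with earlier results of these data known. Values of some genes counted in these lists are not reported here.

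Genes were kept with filterByExpr by group. In R 4.3.3 with edgeR 4.0.16 (legacy quasi-likelihood mode) and limma 3.58.1, 1 model with a term for each of the 4 groups was fitted to all mice with TMM factors. The p-values were adjusted by Benjamini-Hochberg over 17286 genes with a threshold of 0.05. CPM were computed on effective library sizes, with a prior count of 2 for log2 CPM. The 10 members are described in full. Other genes named passed the threshold in a comparison, are defining markers, or act on neutrophils, and for likeness the highest 10 for S100a8 and 5 each for Lcn2 and Il1b are given. Limits for counts of 0 cover counting error only. Motifs were searched in RefSeq promoter windows. DESeq2 1.42.0, other scalings and filters, the revised and robust fits, a fit to only the groups compared, a red blood cell covariate and leaving out mice were tried. The model was tested on simulated data. Counts of the 73 pairs of mice within groups differed beyond sampling error, with a chi-square of at least 4.70 per gene.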

Additional observations from a re-analysis of the deposited data

Results flagged for a closer look

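Single mice stood far from the rest of their group in 10 of the 40 combinations of gene and group by Dixon's criterion. Its usual rate of about 1 in 20 holds for independent normal values. These CPM are low and skewed and the 40 combinations share the same mice, so the count was not set against chance. FAKO mouse 27 held 3 of the 10 and control mouse 7 held 4. FAKO mouse 27 at 5 °C was high in S100a8 (16.5 CPM, next mouse 4.76), S100a9 (23.96 CPM, next 7.87) and Lcn2 (29.9 CPM, next 10.5). Control mouse 7 at 30 °C was high in S100a8 (1.33 CPM, next 0.340), S100a9 (2.06 CPM, next 0.681), Mmp9 (4.31 CPM, next 2.12) and Ngp (0.184 CPM, next 0.0604, which is 4 counts against 1). Control mouse 21 at 5 °C was high in Lcn2 (19.2 CPM, next 4.46), control mouse 3 at 30 °C in Il1b (2.66 CPM, next 1.31), and FAKO mouse 26 at 5 °C in Ngp (0.549 CPM, next 0.210, which is 9 counts against 3).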

How the results depend on the processing

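No paired analysis was possible because no replicate number is shared between groups. The members called were 5 in cold control mice and 7 in cold mice labelled FAKO when any single mouse was left out. The corresponding medians ranged from 1.94 to 2.60 and from 2.56 to 3.41, and those for the label at 30 °C, the label at 5 °C and the difference of the cold responses from -0.28 to 0.09, from 0.30 to 1.17 and from 0.53 to 1.27 (log2). With the red blood cell covariate the median in cold mice labelled FAKO was 1.82 in place of 3.25. Csf3r in cold control mice was called in a fit to only the groups compared (0.58, edgeR adjusted p = 0.0356), and without the 3 libraries that stood apart (0.76, edgeR adjusted p = 0.0275). Leaving out mice 7 and 27, or these and mouse 23, was chosen after seeing the data. Over all alternatives 4 to 6 members were called in cold control mice and 5 to 8 in cold mice labelled FAKO, the 8 being with Ngp in a fit without the filter. Retnlg gave no value with a filter on a mean of 1 CPM, and Retnlg, Mmp8, S100a8 and Lcn2 gave none in some fits to only the groups compared, where they did not pass the filter. Library size alone moved the median of all genes to -0.14 in cold control mice and -0.34 in cold mice labelled FAKO, where 3223 of 11607 called genes were higher in place of 5825 of 11860. No member was called for the label or the difference of the cold responses under any alternative run, DESeq2 included. Low counts limit Mmp8, Retnlg, Ngp and Camp most.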

Other observations

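The ratio of S100a9 to S100a8 counts was 1.06 to 1.40 in the 5 cold control mice, 0.548 to 2.10 in cold mice labelled FAKO and 1.00 to 1.83 in mice labelled FAKO at 30 °C. In the 6 control mice at 30 °C with any S100a8 count it was 1.55 to 5.00.

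Genes of other blood cells did not move as one. Of 10 tested genes of T and B lymphocytes, 7 fell in cold control mice, where 33.4% of all genes fell. Among the 7 were Cd79a, a subunit of the B cell receptor (-2.29, SE 0.41), and Ighm, its heavy chain (-2.17, SE 0.43). In cold mice labelled FAKO 2 fell, where 34.9% of all genes fell. With the 3 libraries that stood apart, mice 7, 23 and 27, left out, 6 of 9 fell there. The sum over the list ran from 4.98 to 6.64 CPM in cold control mice and from 14.3 to 29.8 CPM in control mice at 30 °C. Among eosinophil, basophil and mast cell genes 5 of 11 were tested, and Siglecf, Prg2, Epx, Ccr3 and Il5ra did not pass the filter. Of the tested genes none rose and 1 fell in control mice, beside 31.6% and 33.4% of all genes. In mice labelled FAKO 1 rose and 1 fell, beside 33.7% and 34.9%. The medians were -0.22 and 0.46 (log2). The faller was Kit, the stem cell factor receptor, by 2.71 and by 2.60 on the log2 scale. Of 3 tested platelet genes 1 rose in control mice, beside 31.6% of all genes, and 2 in mice labelled FAKO, beside 33.7%. None fell, and the medians were -0.22 and 0.54 (log2). Pf4, a chemokine of platelet granules that macrophages also express, rose by 1.14 and 1.64, while Clec1b, a platelet receptor, had -0.69 and -0.10 and was not called. Of 8 genes known for brown adipocytes, 3 rose and 2 fell in control mice, beside 31.6% and 33.4% of all genes. In mice labelled FAKO 3 rose and 3 fell, beside 33.7% and 34.9%. The medians were 0.01 and 0.12 (log2). Ucp1, the uncoupling protein, had the largest rise of the list, by 4.02 and 4.34.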
